A study of Arabidopsis halleri with 12 samples.

Results

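Zinc and manganese transport and sensing were followed in roots of Arabidopsis halleri through 5 genes, out of 13350 genes with a probe set of their own. Each was chosen by its symbol in the probe annotation and was measured by 1 of the 22746 probe sets tested. They were ZIP9 (probe set 253413_at), ZIP6 (267304_at), bZIP19 (253171_at), MTP11 (266963_at) and AT3G58060 (251620_at), which is also called MTP8. A. halleri is a zinc hyperaccumulator related to the model plant A. thaliana. The study asked how its roots differ when AhNAS2 is suppressed; NAS2 is a nicotianamine synthase, and nicotianamine is a small chelator that keeps zinc and other metals soluble inside the plant. The arrays fell into 4 groups of 3, all from roots of hydroponically grown plants aged 5 weeks. The first was the line AhNAS2-RNAi-1-2, which carries an RNA interference construct against AhNAS2, in Hoagland solution with 10 µM zinc added (RNAi zinc). The second was the Langelsheim wild type in that solution (WT zinc). The others were the same RNAi line (RNAi control) and wild type (WT control) in the Hoagland solution without this addition. Every array held RNA pooled from 3 clonal plants, and per the series' design text the experiment was done 3 times. A single RNAi line was used, so suppression of AhNAS2 and any other difference of this line from the wild type cannot be told apart. The promoter of the construct is not given in the sources used here. Because the labels do not link replicate numbers to those experiments, p-values cover only the spread among the pooled samples.

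Zinc enters root cells mainly through carriers of the ZIP family, which move divalent metals into the cytosol. In A. thaliana the transcription factor bZIP19, together with its close relative bZIP23, senses low cellular zinc and switches on a set of zinc deficiency genes, ZIP9 among them. Carriers of the MTP family work in the opposite sense and load metals out of the cytosol into vacuoles or secretory compartments; MTP8 and MTP11 are known in A. thaliana as manganese carriers.

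All values below are log2 signals of a probe set, and differences are log2 fold changes, taken as RNAi minus WT for the line and as added zinc minus control for the medium. A probe set was called changed at a limma p-value below 0.05 after Benjamini-Hochberg adjustment over all 22746 probe sets. No member was called in any of the 7 comparisons. Over all probe sets the line comparison called 0.022% in control medium, 0.0528% with zinc added and 1.05% averaged over the media. The zinc comparison called 0% in WT, 0% in the RNAi line and 0% averaged over the lines, and the interaction called 0% as well. The median of the members was -0.021 for the line over both media and 0.014 for zinc over both lines, beside -0.0014 and -0.0041 over all probe sets. At an unadjusted p below 0.05, 1 member, ZIP9, was found for zinc in WT and for zinc over both lines, where 5.04% and 7.62% of all probe sets lay below that value. In the other 5 comparisons 0 members were found without a replicate block. There the share of all probe sets was 8.76% for the line in control medium, 7.72% with zinc added and 13.3% averaged over the media. It was 4.52% for zinc in the RNAi line and 2.18% for the interaction. With the replicate block described below, AT3G58060 also lay below an unadjusted 0.05 for the line in control medium. The share of all probe sets there was 8.74%. ZIP9 did so with the block for zinc in the RNAi line, where the share was not computed. Neither was called. The array medians of the deposited values lay between 5.34 and 5.38. Near-equal medians after processing do not show that the arrays were otherwise alike, and the spike-in levels given below differed between media. Probe sets are annotated with A. thaliana genes, and sequence differences from A. halleri can lower a signal.

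ZIP9, the zinc carrier gene that zinc deficiency induces in A. thaliana roots, had lower mean levels with added zinc in both lines. Its signal was 10.37, 10.33 and 9.36 in RNAi zinc, and 11.07, 11.12 and 9.69 in RNAi control. In the wild type it was 10.14, 9.60 and 10.03 in WT zinc, and 10.89, 11.08 and 10.32 in WT control. The 3 WT zinc arrays lay below the 3 WT control arrays without overlap, as did 5.13% of all probe sets in that direction, whereas in the RNAi line 1 control array fell below 2 of the zinc arrays. Group means in the RNAi line were 10.0 ± 0.57 with added zinc and 10.6 ± 0.81 in control medium (SD, n = 3). In WT they were 9.92 ± 0.29 with added zinc and 10.8 ± 0.40 in control medium.

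The zinc difference of ZIP9 was -0.84 in WT (SE 0.38, 95% confidence interval -1.66 to -0.016, limma adjusted p = 0.972). In the RNAi line it was -0.61 (SE 0.38, interval -1.43 to 0.22, limma adjusted p = 0.9996). Over both lines it came to -0.72, a level 0.606 times that in control medium (SE 0.27, interval -1.31 to -0.14, limma adjusted p = 0.581). Each of these values was negative in every alternative setting and none was called. Without RNAi control replicate 3, the lowest of the control arrays, the difference in the RNAi line was -1.08 (SE 0.30, adjusted p = 0.697), and without RNAi zinc replicate 3 it was -0.28 (adjusted p = 0.992). Without RNAi control replicate 1 or 2 it was -0.38 or -0.36. With the replicate block described with AT3G58060, the difference in the RNAi line stayed at -0.61 with an SE of 0.27 (limma unadjusted p = 0.0499, adjusted p = 0.9997). On the RNAi arrays alone, a setting chosen after seeing the data, the block gave an SE of 0.12 (limma unadjusted p = 0.0016, adjusted p = 0.796). The share of all probe sets below an unadjusted 0.05 in these fits was not computed. Between media in the RNAi line, replicate 1 deviations correlated at -0.084, below the 0.1 used to count numbers as pairs. The p-values with the block therefore assume a pairing that this line did not show in full. The zinc effects of the lines differed by 0.23 (SE 0.53, interval -0.93 to 1.40, adjusted p = 0.9999), so a weaker or stronger response in the RNAi line was not detectable. RNAi and WT differed by 0.096 in added zinc and by -0.14 in control medium, with intervals of -0.73 to 0.92 and -0.96 to 0.69.

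**Figure D1:**
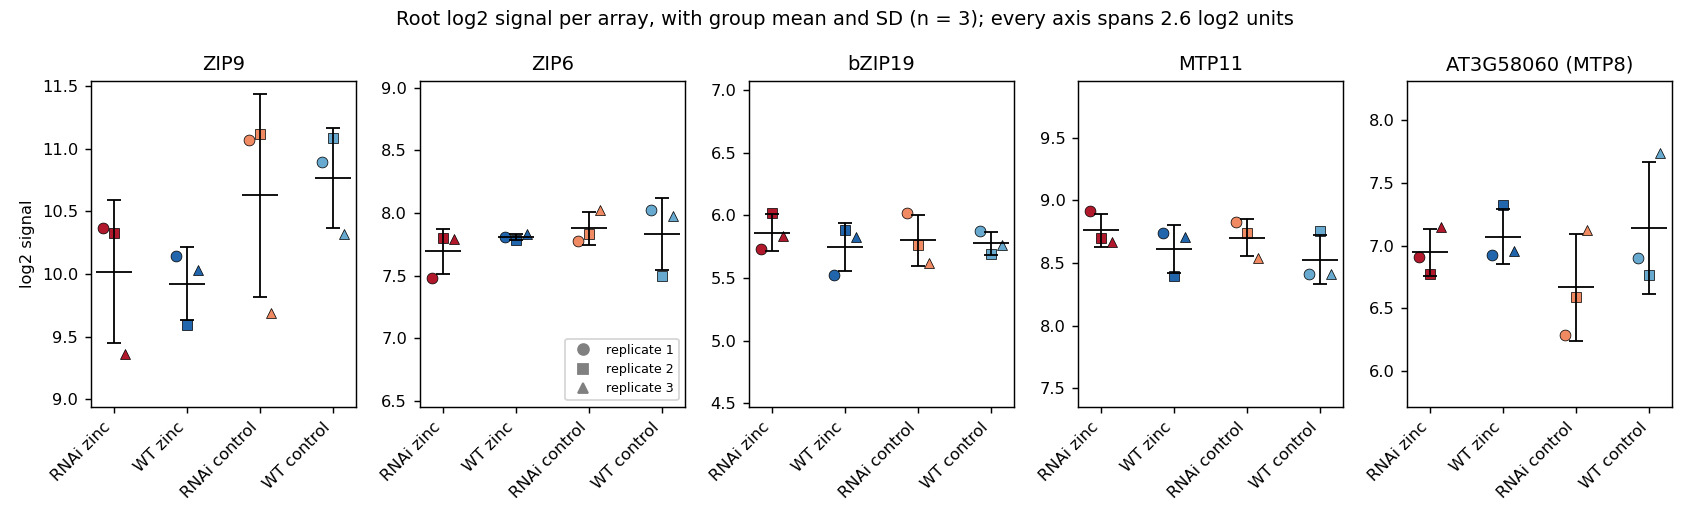
Log2 signal of the 5 genes on each of the 12 arrays (points, with the replicate number as symbol) with the group mean and SD (bars, n = 3) in the 4 groups; every vertical axis covers the same span. ZIP9 varied most between arrays, from 9.36 to 11.12. Its WT zinc arrays lay below its WT control arrays, as did 5.13% of all probe sets. In the other comparisons of groups ZIP9 overlapped, and the other 4 genes overlapped in all of them.

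The root markers on the array varied together with ZIP9. Of 13 root markers listed, the 2 with a named probe set were EXPA7 and EXPA18, expansin genes of root hair cells, and of 15 leaf markers only RCA, the Rubisco activase gene, had one. EXPA7 had 8.05, 8.17 and 7.17 in RNAi zinc against 8.55, 8.62 and 7.52 in RNAi control. In the wild type it had 8.11, 7.48 and 7.75 in WT zinc against 8.37, 8.50 and 8.02 in WT control. In each line the array with the lowest EXPA7 within a medium was also the one with the lowest ZIP9. EXPA7 differed by -0.48 with added zinc over both lines (SE 0.22, adjusted p = 0.656) and EXPA18 by -0.46 (SE 0.25, adjusted p = 0.714). RCA lay between 4.57 and 5.06 on all arrays, below the array medians. In such bulk RNA, fewer cells of a type and less RNA per cell cannot be told apart, and the part of root hair cells in the ZIP9 values was not tested. The hybridization spike-ins, control transcripts on 18 probe sets, averaged 9.83 to 10.08 on the zinc arrays and 10.14 to 10.45 on the control arrays. With that level as a covariate the ZIP9 difference over both lines was -0.48 (SE 0.59, adjusted p = 0.907), and added zinc and the spike-in level cannot be told apart because they separate the arrays in the same way.

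The genes with the pattern most like that of ZIP9, by Pearson correlation of log2 signal over the 12 arrays among 13508 other single-gene probe sets, were AT5G19810 (r = 0.988), EXPA7 (r = 0.977) and AT5G26070 (r = 0.975). These arrays include group differences and replicate differences, and the likeness was as high for deviations from the group means alone, at 0.988, 0.977 and 0.972. In all, 102 of those probe sets had an r above 0.8 with ZIP9.

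ZIP6, another carrier gene of the ZIP family, was not called in any comparison. It had 7.48, 7.80 and 7.79 in RNAi zinc and 7.81, 7.79 and 7.84 in WT zinc. Without added zinc it had 7.78, 7.83 and 8.03 in RNAi control and 8.02, 7.50 and 7.98 in WT control. The groups overlapped in every comparison, and the lowest arrays, RNAi zinc replicate 1 and WT control replicate 2, came from different lines and media. With added zinc it differed by -0.19 in the RNAi line (SE 0.14), by -0.021 in WT (SE 0.14) and by -0.10 over both lines (SE 0.097, interval -0.32 to 0.11, limma adjusted p = 0.860). RNAi and WT differed by -0.035 over both media (SE 0.097, interval -0.25 to 0.18, limma adjusted p = 0.924). Single arrays moved these values by more than 1.5 times. Without WT control replicate 2 the zinc difference over both lines was -0.19 (SE 0.075, unadjusted p = 0.031, limma adjusted p = 0.642), and without RNAi zinc replicate 1 it was -0.051 over both lines and -0.080 in the RNAi line. In the fit on all arrays the interval leaves room for a zinc effect on ZIP6 down to 0.803 times the control level, or up to 1.08 times. The closest patterns were AT5G50900 (r = 0.872), AT4G04180 (r = 0.863) and ATB2 (r = 0.854).

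The zinc sensor gene bZIP19 had group means that differed by less than the spread between arrays. Its signal was 5.73, 6.02 and 5.84 in RNAi zinc and 5.53, 5.88 and 5.83 in WT zinc, and 6.02, 5.76 and 5.62 in RNAi control and 5.87, 5.69 and 5.77 in WT control. All 4 groups overlapped, and their means lay within 0.12 of each other, less than the pooled SD of 0.16. The zinc difference over both lines was 0.014 (SE 0.089, interval -0.18 to 0.21, limma adjusted p = 0.981), and the line difference over both media was 0.070 (SE 0.089, interval -0.12 to 0.26, limma adjusted p = 0.804). With single arrays left out the line difference ran between 0.015 and 0.11, lowest without RNAi control replicate 1 or WT zinc replicate 1 and highest without RNAi control replicate 3. With the spike-in level as a covariate the zinc difference over both lines was 0.47 (SE 0.12, limma unadjusted p = 0.0034, adjusted p = 0.834), again not called. With that covariate it was 0.35 in WT and 0.58 in the RNAi line, also not called. Added zinc and the spike-in level cannot be told apart on these arrays. The bZIP19 signal stood close above the array medians, and signal over background was not analysed. The closest patterns were AT4G31410 (r = 0.932), AT1G67530 (r = 0.927) and AT4G35840 (r = 0.891).

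bZIP19 and its A. thaliana target gene ZIP9 did not follow each other across the arrays. Their correlation over the 12 arrays was 0.16 (Pearson) and -0.0070 (Spearman), given here as a description. The arrays read transcript levels and give no measure of the activity of the protein.

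MTP11, a manganese carrier of secretory compartments in A. thaliana, had slightly higher means in the RNAi line in both media. It had 8.91, 8.70 and 8.67 in RNAi zinc against 8.74, 8.39 and 8.71 in WT zinc, and 8.82, 8.74 and 8.54 in RNAi control against 8.42, 8.75 and 8.41 in WT control. The lines overlapped in both media. The line difference was 0.15 in added zinc (SE 0.13), 0.18 in control medium (SE 0.13) and 0.16 over both media (SE 0.091, interval -0.037 to 0.36, limma adjusted p = 0.491). It was positive in every alternative setting and never called, and single arrays moved it by more than 1.5 times. In added zinc it was 0.037 without WT zinc replicate 2 and 0.071 without RNAi zinc replicate 1. In control medium it was 0.29 without WT control replicate 2 and 0.12 without RNAi control replicate 1, and over both media it was 0.11 without WT zinc replicate 2. Added zinc differed from control by 0.073 over both lines (SE 0.091, interval -0.13 to 0.27, limma adjusted p = 0.897), and by 0.032 to 0.13 with single arrays left out. The closest patterns were AT3G42100 (r = 0.963), the glycosyltransferase gene UGT71B1 (r = 0.940) and AT1G13570 (r = 0.905).

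AT3G58060 (MTP8), a vacuolar manganese carrier gene that iron deficiency induces in A. thaliana roots, had its lowest mean in RNAi control. Its signal was 6.91, 6.78 and 7.15 in RNAi zinc against 6.93, 7.33 and 6.96 in WT zinc. In control medium it was 6.29, 6.59 and 7.13 in the RNAi line against 6.91, 6.77 and 7.74 in WT. The lines overlapped in control medium through RNAi control replicate 3, which lay above 2 of the 3 WT control arrays. Compared between arrays of the same replicate number in control medium, RNAi was lower in 3 of 3 pairs, with differences of -0.62, -0.18 and -0.61. ZIP9, ZIP6, bZIP19 and MTP11 were each lower in RNAi in 1 of 3 pairs. No label pairs these arrays, and the share of all probe sets with the same direction in 3 of 3 pairs was not computed. With added zinc the group means were 6.95 ± 0.19 in the RNAi line and 7.07 ± 0.22 in WT, and in control medium 6.67 ± 0.43 in the RNAi line and 7.14 ± 0.53 in WT (SD, n = 3).

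The line difference of AT3G58060 was -0.47 in control medium (SE 0.26, interval -1.03 to 0.087, limma adjusted p = 0.655), -0.13 in added zinc (SE 0.26, adjusted p = 0.959) and -0.30 over both media (SE 0.18, interval -0.69 to 0.096, adjusted p = 0.526). Replicate numbers were treated as pairs in control medium, from the correlation of the arrays and not from a label. With the replicate number as a block in the model the control medium difference had an SE of 0.21 (unadjusted p = 0.045, limma adjusted p = 0.554). That model lets arrays of the same number shift together in every group. In WT, however, deviations correlated between added zinc and control arrays of the same number at -0.31, -0.45 and -0.12. The pairing was also chosen from these data, so the smaller SE and p-value depend on an assumption that the design does not give. With the block on the 6 control medium arrays alone, a setting chosen after seeing the data, the control medium difference had an SE of 0.11 (unadjusted p = 0.0044, limma adjusted p = 0.199). This fit depends on the same pairing chosen from the data. Neither value was called, and AT3G58060 was the 1 member below an unadjusted p of 0.05 in each, where 8.74% and 11.6% of all probe sets lay below it. The difference in control medium was -0.17 without WT control replicate 3 (adjusted p = 0.867), -0.28 without RNAi control replicate 1 (adjusted p = 0.878) and -0.70 without RNAi control replicate 3 (adjusted p = 0.448). Without WT control replicate 3 the difference over both media was -0.15 (adjusted p = 0.718). Added zinc differed from control by 0.28 in the RNAi line (SE 0.26), by -0.067 in WT (SE 0.26) and by 0.11 over both lines (SE 0.18, interval -0.29 to 0.50, adjusted p = 0.930). The zinc effect in RNAi minus that in WT was 0.34 (SE 0.36, adjusted p = 0.9999). It ran between 0.043 without WT control replicate 3 and 0.58 without RNAi control replicate 3, and the zinc difference over both lines between 0.010 without RNAi control replicate 1 and 0.26 without WT control replicate 3. The closest patterns were AT3G19810 (r = 0.914), AT5G66815 (r = 0.909) and AT1G62350 (r = 0.904).

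**Figure D2:**
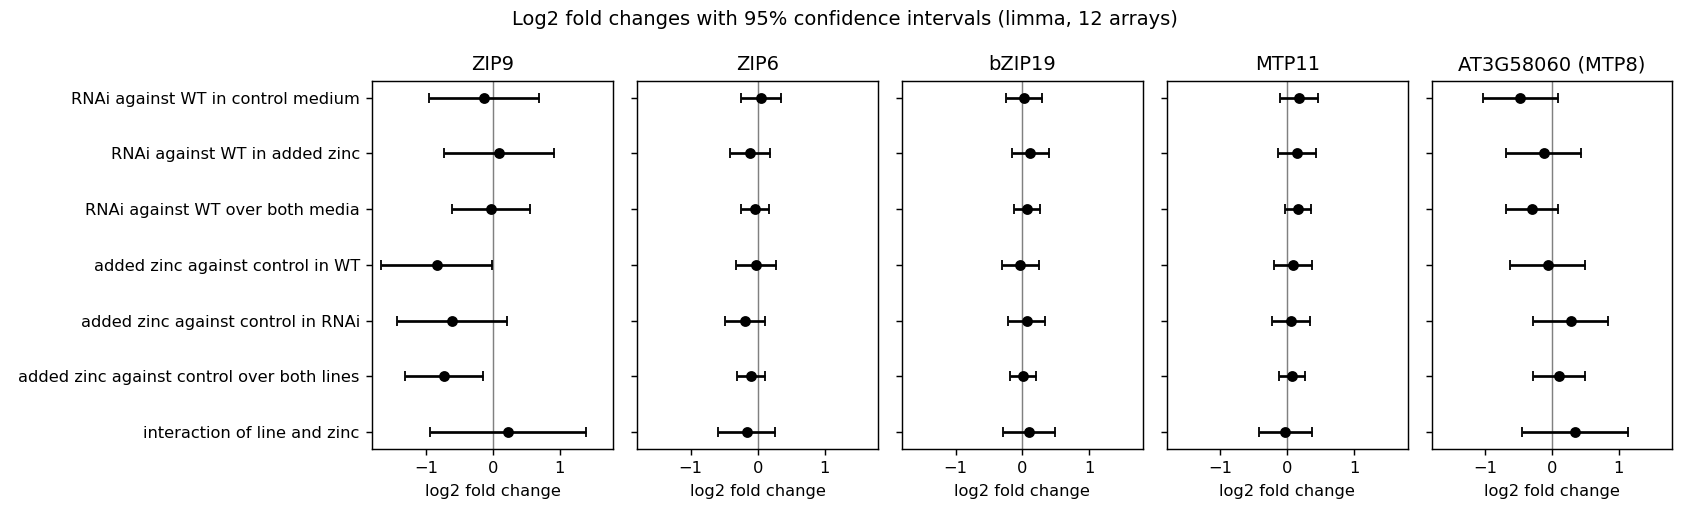
Log2 fold changes of the 5 genes (points) with 95% confidence intervals (bars) in the 7 comparisons, from the limma fit over all 12 arrays. The intervals of ZIP9 for zinc in WT and over both lines end below 0, at -0.016 and -0.14, and all others cross 0. Over all probe sets 5.04% and 7.62% had an unadjusted limma p below 0.05 in these comparisons. After adjustment none of the 5 genes was called.

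In the order of group means, neighbouring groups differed by less than the pooled SD of the gene for ZIP6, bZIP19, MTP11 and AT3G58060. From the highest to the lowest group mean the gap was 0.47 for AT3G58060 (pooled SD 0.37) and 0.23 for MTP11 (0.17). It was 0.186 for ZIP6 (0.184) and 0.12 for bZIP19 (0.16). For ZIP9 the order from high to low was WT control, RNAi control, RNAi zinc and WT zinc, and the only gap above the pooled SD of 0.55 was that of 0.61 between RNAi control and RNAi zinc.

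The members differed in how far replicates lay apart. The pooled SD within groups was 0.55 for ZIP9 and 0.37 for AT3G58060, larger than those of 98.9% and 96% of all probe sets, against 0.18 for ZIP6, 0.17 for MTP11 and 0.16 for bZIP19, and the median over all probe sets was 0.14. ZIP9 and AT3G58060 deviated in opposite directions. Replicate 3 had the lowest ZIP9 and the highest AT3G58060 of its group in RNAi zinc, RNAi control and WT control, and in WT zinc replicate 2 did. The correlation of their deviations from the group means over the 12 arrays was -0.85, and that of the signals themselves was -0.63 (Pearson) and -0.85 (Spearman). These are descriptions, since genes measured on one array share its RNA sample.

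**Figure D3:**
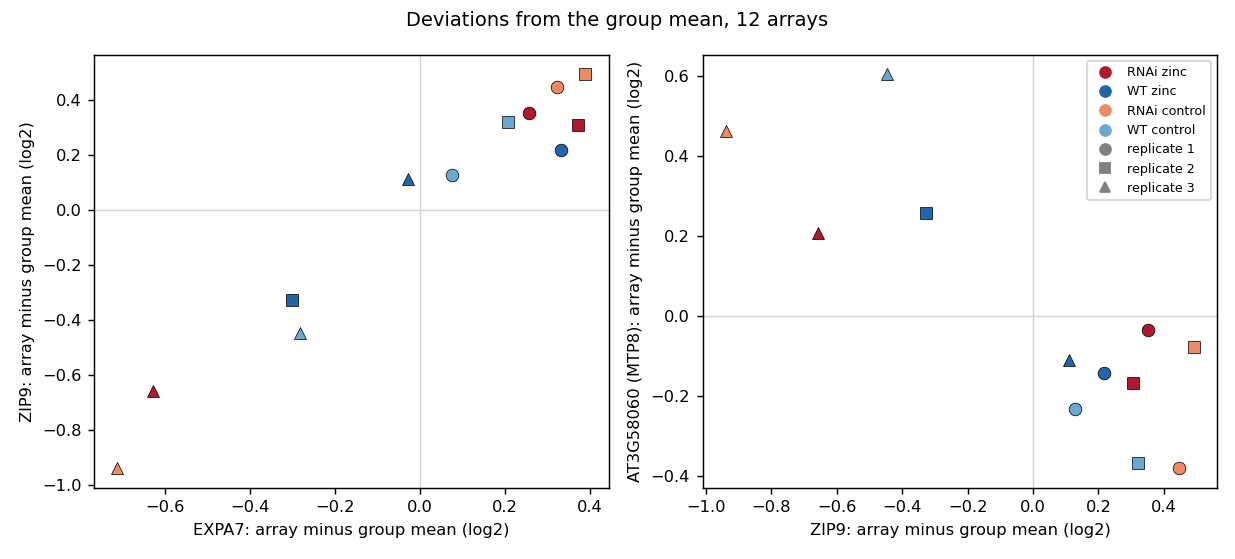
Deviation of each array from its group mean (log2) for ZIP9 against the root hair expansin gene EXPA7 (left) and for AT3G58060 against ZIP9 (right), with colours for the 4 groups and symbols for the replicate number. ZIP9 rises along EXPA7, with a correlation of 0.977, and AT3G58060 runs against ZIP9, with a correlation of -0.85.

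Most of this variation lay along the main axis on which replicates differed over the whole array, the first principal component of the deviations of all probe sets other than the members, which held 33.6% of their variance. With the axis turned so that ZIP9 was positive, deviations correlated with it at 0.85 for ZIP9, 0.93 for MTP11, -0.79 for ZIP6, -0.78 for AT3G58060 and -0.20 for bZIP19. RNAi control replicate 3 (-1.19), RNAi zinc replicate 3 (-1.19), WT control replicate 3 (-1.17) and WT zinc replicate 2 (-1.08) stood at its low end, in units of the SD of the axis. What sets these 4 arrays apart was not tested.

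Beyond the members, 9 of 67 other genes in the zinc and manganese lists used here had a named probe set, and the rest were not analysed here. The 9 included BZIP24, listed only as a factor of the same bZIP group as bZIP19, NRAMP5 and the metallothionein gene MT1C. The others were 5 loci listed in the MTP family (AT2G47830, AT1G51610, AT1G79520, AT1G16310 and AT2G04620) and AT1G64150, listed as a manganese carrier. None was called in any of the 7 comparisons. Over both lines their zinc differences ran from -0.17 to 0.10 with a median of 0.015. The lowest were AT1G16310 (-0.17, SE 0.30), MT1C (-0.14, SE 0.11) and AT2G04620 (-0.13, SE 0.12), and the highest AT1G51610 (0.10, SE 0.060), BZIP24 (0.068, SE 0.14) and AT1G64150 (0.054, SE 0.052). None of these was as far from 0 as the ZIP9 value of -0.72, and the difference between genes was not tested. The mean over lines hides opposite signs for AT1G16310, at -0.56 in WT and 0.22 in the RNAi line (SE 0.43 for each). Its interaction was 0.78 (SE 0.61, limma adjusted p = 0.9999). RNAi and WT differed for AT1G16310 by -0.53 in control medium and by 0.25 in added zinc (SE 0.43 for each).

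For RNAi against WT over both media the differences of these 9 ran from -0.14 to 0.26 with a median of 0.066. AT1G79520 had 6.91 ± 0.042 in RNAi zinc against 6.62 ± 0.31 in WT zinc, and 6.86 ± 0.091 in RNAi control against 6.64 ± 0.080 in WT control (SD, n = 3), a difference of 0.26 (SE 0.090, limma adjusted p = 0.220). MT1C followed at 0.21 (SE 0.11, adjusted p = 0.471) and AT2G47830 at 0.15 (SE 0.067, adjusted p = 0.375). The lowest were AT1G51610 (-0.14, SE 0.060, adjusted p = 0.318), AT1G16310 (-0.14, SE 0.30) and BZIP24 (-0.096, SE 0.14). At an unadjusted p below 0.05, 3 of the 9 were found in this comparison (AT1G79520, AT1G51610 and AT2G47830), where 13.3% of all probe sets lay below that value. Of these AT1G79520 and AT2G47830 had higher and AT1G51610 lower means in RNAi.

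**Figure D4:**
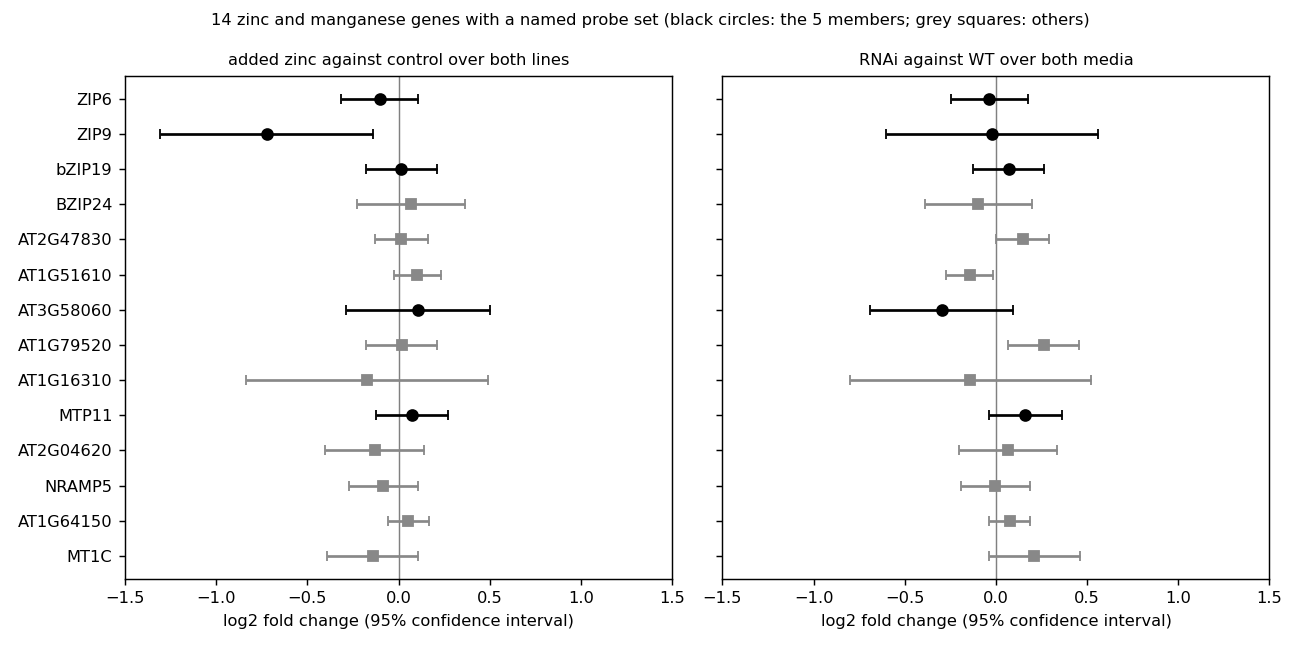
Log2 fold changes (points) with 95% confidence intervals (bars) of the 14 genes in the zinc and manganese lists with a named probe set. The left panel shows added zinc against control over both lines and the right panel RNAi against WT over both media. Black circles are the 5 members and grey squares the 9 others. In the left panel only the ZIP9 interval does not cross 0, where 7.62% of all probe sets had an unadjusted limma p below 0.05. In the right panel the intervals of AT1G79520, AT1G51610 and AT2G47830 do not cross 0, where that share was 13.3%. No gene was called after adjustment.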

How the data were processed

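Root RNA was hybridized to 12 single-colour arrays. The authors deposited log2 expression summaries per probe set; RMA and affy are named per the submitters' processing notes, with no version, and the sources used here do not give the background step, the quantile step or the probe definition. Of 22810 probe sets, 64 were controls and left out. The annotation table gave 1 gene to 13513 of the remaining 22746, several to 503 and none to 8730.

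The deposited values entered 1 linear model of the 4 group means (limma 3.58.1 under R 4.3.3, lmFit with eBayes, two-sided), without rescaling or filter. The procedure was run on simulated data for the zinc comparison over both lines only. The simulated noise was independent between probe sets, unlike the deviations on these arrays, so that run does not bear on the p-values here. Intervals are 95% confidence intervals of the moderated fit. Precision depends on how many arrays there are and on the spread of each probe set. Over all probe sets the median standard error of a difference was 0.11 between groups of 3. It was 0.077 between 2 pairs of groups and 0.15 for the interaction. For ZIP9 these standard errors were 0.38, 0.27 and 0.53. Replicates shared at most 0.0615% identical values.

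The members, gene lists and tests were chosen with earlier results of these data known. Values are given for the 5 members, for the 3 highest and 3 lowest other list genes in each comparison over both lines or media (or any called), for the 3 single-gene probe sets with the highest Pearson r with each member, and for the tissue markers.

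To see whether replicate numbers pair the samples, deviations from group means were correlated between arrays of the same number. They exceeded 0.1 in 3 of 3 pairs in control medium (0.16 to 0.48), 1 of 3 with zinc added, 0 of 3 between media in WT and 2 of 3 in RNAi. By this rule the numbers were treated as pairs in control medium, from the data and not from a label. Deviations of arrays with different numbers were not compared, so the rule does not show that the numbers mark pairs. With the replicate block 3 probe sets were called in control medium in place of 5, with 0 members in both.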

Additional observations from a re-analysis of the deposited data

How the results depend on the processing

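The 35 member fold changes were recomputed under 19 alternative settings, 18 of them planned and 1, the replicate block over only the 2 groups compared, chosen after seeing the data. Of the 635 values 0 passed the threshold, 585 kept their sign and 50 had the other sign. The replicate block changed no member's call: the zinc difference of ZIP9 over both lines kept its value of -0.72, with an adjusted p of 0.465 (range over all alternatives 0.257 to 0.907). Counts over all probe sets moved more. For RNAi against WT in control medium the main count of 5 was 3 with the replicate block, with the 2 groups alone, without dim probe sets and with the spike-in covariate, 8 with the block on 2 groups, 11 with the trended robust fit and 1 to 20 without single arrays. Without single arrays the count was 2 to 29 in added zinc (main 12), 68 to 267 over both media (main 239), 0 to 1 for zinc in WT and 0 to 4 for zinc over both lines (main 0 for both, and 2 with the replicate block for the last). With the spike-in covariate, sign changes were those of bZIP19 for the line in control medium (-0.044) and for zinc in WT (0.35), of MTP11 for zinc in WT (-0.017), the RNAi line (-0.084) and both together (-0.051), and of AT3G58060 for zinc over both lines (-0.085). The other sign changes came from left-out arrays, over which the values ran as follows. For RNAi against WT in control medium ZIP9 ran from -0.38 to 0.33, ZIP6 from -0.12 to 0.14 and bZIP19 from -0.088 to 0.11. In added zinc ZIP9 ran from -0.079 to 0.42 and AT3G58060 from -0.23 to 0.0020, and over both media ZIP9 ran from -0.14 to 0.21 and ZIP6 from -0.12 to 0.017. For zinc in WT the ranges were -0.19 to 0.074 for ZIP6, -0.10 to 0.077 for bZIP19 and -0.25 to 0.23 for AT3G58060. For zinc in RNAi they were -0.029 to 0.17 for bZIP19 and -0.023 to 0.12 for MTP11, and over both lines -0.031 to 0.070 for bZIP19. For the interaction they were -0.24 to 0.56 for ZIP9, -0.26 to 0.0020 for ZIP6, -0.016 to 0.20 for bZIP19 and -0.14 to 0.036 for MTP11. Fewer arrays enter a left-out fit; the cause of the other changes was not tested. Signal over background was not analysed.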
